A study of Homo sapiens with 6 samples.

Results

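Chemokine ligands were followed in MHH-cALL4, a human leukaemia line that carries the features of Philadelphia chromosome-like acute lymphoblastic leukaemia, with and without the JAK1 and JAK2 inhibitor ruxolitinib. The 9 genes were chosen as chemokine ligands by name: CCL2, CCL3, CCL4, CCL5, CCL17, CCL22, CXCL8, CXCL10 and CXCL16. Each was to be read from its brightest transcript cluster, meaning the probes the array assigns to a single locus, among the clusters annotated to exactly 1 gene. This gave 8 genes of the 33616 in the table. Each of the 8 had only 1 such cluster, so no choice between clusters was made. CCL4 was not analysed here, because its cluster is also annotated to the near-identical copies CCL4L1 and CCL4L2.

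Total RNA was measured on 6 Affymetrix arrays after 12 h of treatment, in 3 samples with the vehicle DMSO and 3 samples with ruxolitinib at 1 µM. The titles of the ruxolitinib arrays name MHH-cALL5, whereas their cell line field names MHH-cALL4. The cell line field was followed here, and if the titles were right, line and treatment could not be told apart in any comparison below. No genotype or other treatment is listed, and the labels do not say whether replicates were separate cultures, so the p-values measure the spread between these arrays, which may be technical. The treatment labels were checked with CISH, a feedback inhibitor induced by STAT5, whose log2 signal was 12.5, 12.6 and 12.1 in DMSO and 5.99, 5.88 and 5.75 with ruxolitinib.

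Chemokines are small secreted proteins that guide leukocytes through receptors coupled to G proteins, and the position of the first cysteines divides them into CC, CXC, XC and CX3C types. Many are made on demand, and NF-kB, AP-1, interferon regulatory factors and STAT proteins are known to switch their genes on. CRLF2, the receptor chain that defines many leukaemias of this subtype, is part of the receptor for the cytokine TSLP, and TSLP is known to induce CCL17 in human dendritic cells. In the marrow, chemokines made by leukaemia cells are studied for the cells they attract.

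The labelled cell type was checked against marker genes. The 9 measured markers of B-cell precursors, among them DNTT, VPREB1 and CD79A, had mean log2 signals of 11.8 to 19.6. None of 10 markers of T and NK cells exceeded 7.60, the level of NKG7, and none of 10 myeloid markers exceeded 6.24. Markers of stroma and endothelium reached 8.93. None of these 4 marker lists had a member that passed the test between groups (limma). At an unadjusted p under 0.05, 1 T and NK cell marker was lower and 2 B-cell precursor markers were higher. Of all 33616 genes, 2304 were lower and 901 higher at that threshold. The summed log2 signal of the myeloid list, whose cells are a usual source of these chemokines, was 51.2 to 53.4 in DMSO and 51.5 to 53.4 with ruxolitinib. For the T and NK cell list it was 44.9 to 49.1 and 45.7 to 47.4. Over all genes, arrays of one group correlated at 0.990 to 0.994, and arrays of different groups at 0.987 to 0.993.

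CCL2 and CCL17 were lower after ruxolitinib, by 6.50-fold and 2.65-fold. The other 6 measured members did not pass the test. No ligand was bright: the highest, CCL5, stood above 68.0% of all genes. CCL2, CCL17 and CCL5 were clearly above the median gene in DMSO cells, and of these only CCL5 was still above it with the inhibitor. CXCL8, CXCL10 and CXCL16 lay close to the median, and CCL3 and CCL22 were below it in both groups.

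At an adjusted p under 0.05 (limma, Benjamini-Hochberg over all genes), 2 of 8 members were lower and 0 were higher (the same 2, and no further member, at an unadjusted p under 0.05). Over all genes the share called in either direction was 1.14%, with 1.04% lower and 0.101% higher. Before adjustment, 2304 of the 33616 genes were under 0.05 as lower and 901 as higher. The members were named with earlier results of these data known, so their share carries no weight of its own. The median log2 change was -0.12 over the 8 members and -0.02 over all genes.

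The median gene had a mean log2 signal of 5.25 over the 6 arrays. Above it stood 5 members, CCL5 at 6.88, CCL17 at 5.79, CXCL10 at 5.47, CXCL16 at 5.30 and CXCL8 at 5.29. The 3 below it were CCL2 at 5.14, CCL3 at 4.56 and CCL22 at 3.73. CXCL8 lay near the line in both groups, at 5.27 in DMSO and 5.31 with ruxolitinib. The CCL2 mean lay near it only as the average of 6.49 in DMSO and 3.79 with ruxolitinib. Taken by group, 6 members exceeded the median in DMSO and 3, CCL5, CXCL8 and CXCL10, did so with ruxolitinib. CCL2, CCL17 and CXCL16 left that count, but CXCL16 moved only from 5.37 to 5.22 (SD 0.24 and 0.52) and did not pass. CXCL8 in DMSO was barely above the DMSO median of 5.24. Probe sets differ in brightness for the same amount of RNA, so these levels place each gene against the table and do not rank the ligands by abundance.

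**Figure D1:**
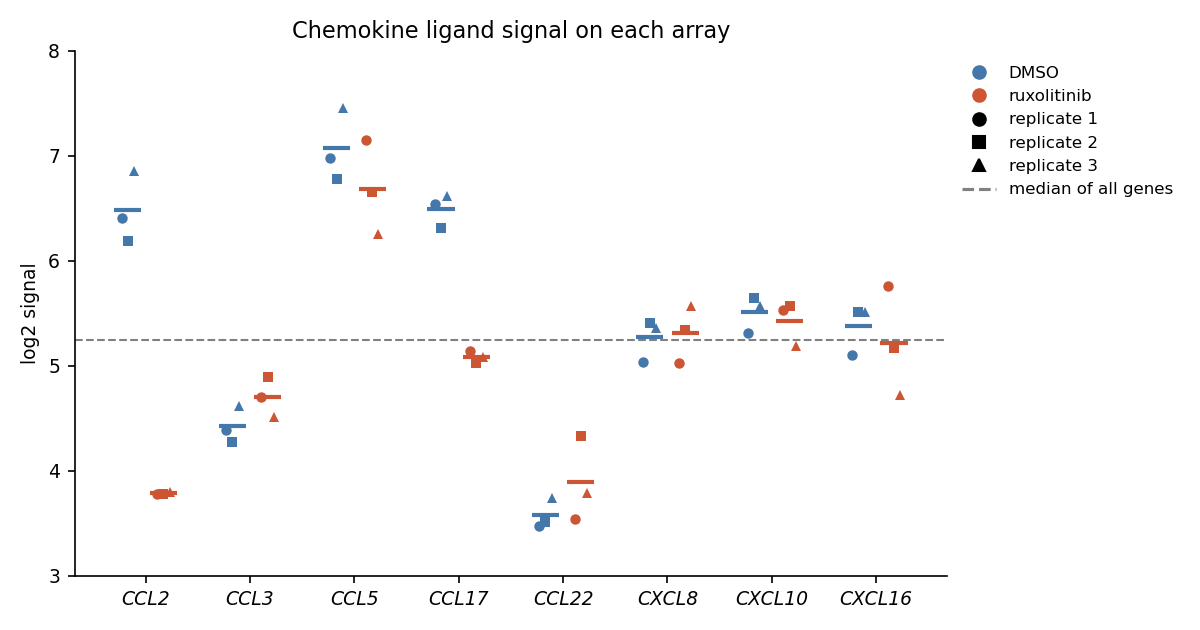
Log2 signal (vertical axis) of the 8 measured ligands (horizontal axis) on the 3 DMSO arrays (blue) and the 3 ruxolitinib arrays (orange), with replicate numbers as symbols, group means as short lines and the median of all genes, 5.25, as a dashed line. The groups are separated for CCL2 and CCL17 and overlap for the other 6.

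CCL2, also known as MCP-1, attracts monocytes through CCR2 and lies in a cluster of CC chemokine genes on chromosome 17 (transcript cluster TC1700007557.hg.1). Its log2 signal was 6.41, 6.19 and 6.86 on the DMSO arrays and 3.78, 3.78 and 3.80 on the ruxolitinib arrays. All 3 DMSO values were above all 3 ruxolitinib values, with a gap of 2.39 between the nearest arrays. The means were 6.49 ± 0.34 and 3.79 ± 0.01 (SD, n = 3 per group), a log2 change of -2.70 ± 0.20 (SE) with a 95% interval of -3.14 to -2.26 (adjusted p = 7.95e-05, limma). Only 15 genes of the table had a more negative change. In DMSO CCL2 stood above 64.7% of genes, and with ruxolitinib above 16.6%. Detection calls were not used here, so the ruxolitinib level cannot be told from background, and the 6.50-fold difference may understate the change.

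CCL17, or TARC, attracts T helper 2 and skin-homing T cells through CCR4, and its gene lies beside CX3CL1 and CCL22 on chromosome 16 (cluster TC1600008000.hg.1). The log2 signal was 6.54, 6.31 and 6.62 in DMSO and 5.14, 5.03 and 5.08 with ruxolitinib. Again the groups did not overlap, and the nearest arrays were 1.17 apart. The means of 6.49 ± 0.16 and 5.08 ± 0.05 (SD, n = 3 per group) gave a log2 change of -1.41 ± 0.17 (SE), with a 95% interval of -1.78 to -1.03 (adjusted p = 0.00243, limma). All 3 DMSO arrays had CCL17 above their own median gene and none of the 3 ruxolitinib arrays did. The ruxolitinib level of CCL17 cannot be told from background here either. RNA from the whole culture was measured, so fewer cells making a transcript and less transcript per cell cannot be told apart, for CCL2 as for CCL17.

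An exact permutation test over the 6 arrays, two-sided, gave p = 0.1 for CCL2 and for CCL17, the smallest value that 3 against 3 allows. The groups did not overlap for 14.2% of all genes, so separation of 6 arrays alone sets no gene apart. Both genes passed at 0.05 whichever single array was left out (highest adjusted p 0.00172 for CCL2 and 0.0261 for CCL17, limma). Without moderation of the spread, which leaves each gene with its own 3-against-3 variance, the adjusted p was 0.146 and 0.132, and only 2 genes of the whole table passed.

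**Figure D2:**
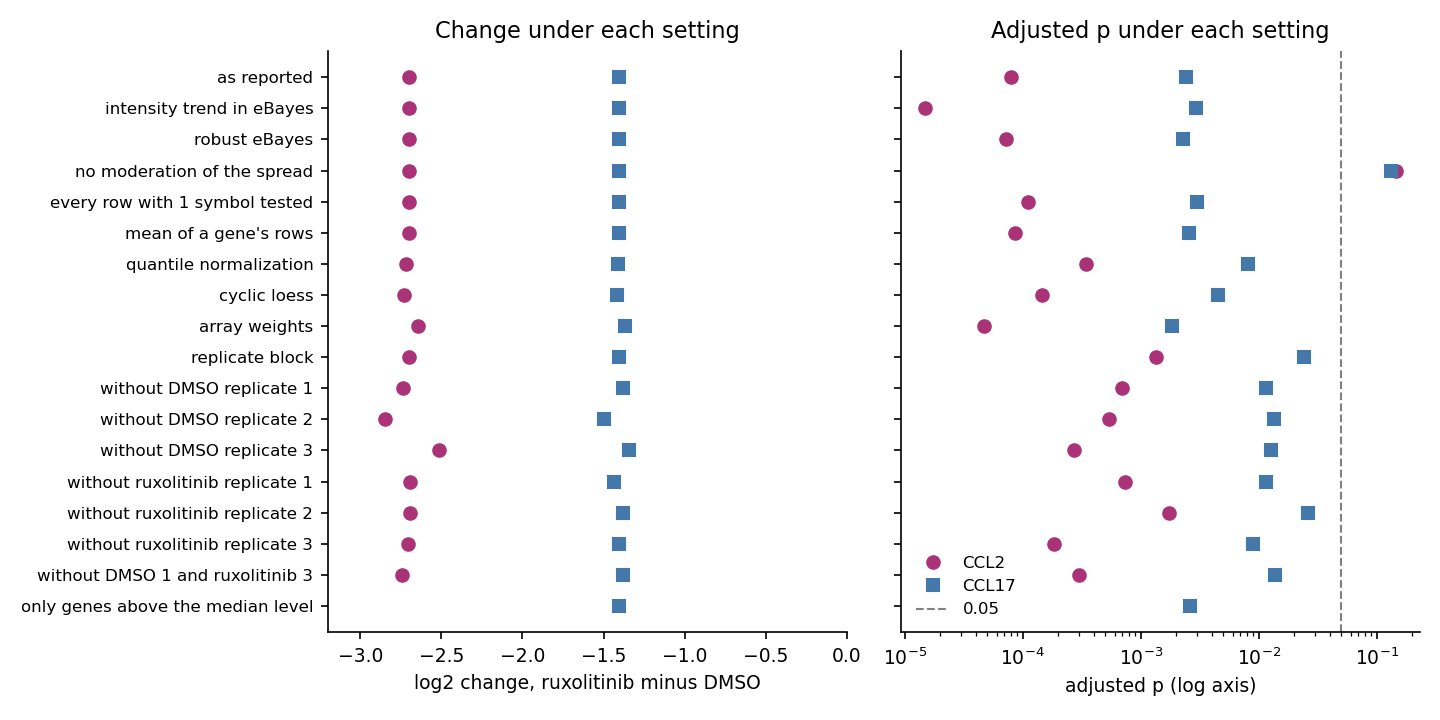
Log2 change (left, ruxolitinib minus DMSO) and adjusted p (right, log axis, dashed line at 0.05) of CCL2 (circles) and CCL17 (squares) as reported and under each alternative setting, listed on the vertical axis. Each array left out in turn moved the change of CCL2 between -2.85 and -2.51 and that of CCL17 between -1.50 and -1.34, and both passed the line except without moderation of the spread. CCL2 has no point for genes above the median level, where it was not tested.

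CCL22, or MDC, is the other ligand of CCR4 and is encoded close to CCL17. Its log2 signal was 3.48, 3.51 and 3.74 in DMSO and 3.54, 4.34 and 3.78 with ruxolitinib. The groups overlapped, and ruxolitinib replicate 2 was the highest array. The change was 0.31 ± 0.22 (SE, adjusted p = 0.776, limma), with an interval of -0.17 to 0.79. CCL22 stood above only 15.4% of genes, so a fall from this level may not have been detectable.

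CCL5, or RANTES, binds CCR1 and CCR3, among others, and draws T cells, monocytes and eosinophils. It had 6.98, 6.78 and 7.46 in DMSO and 7.15, 6.66 and 6.25 with ruxolitinib. The groups overlapped: ruxolitinib replicate 1 was above 2 of the 3 DMSO arrays. The log2 change of -0.39 ± 0.25 (SE) did not pass (adjusted p = 0.749, limma), and its interval of -0.94 to 0.17 runs from a 1.92-fold lower to a 1.13-fold higher level.

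CCL3, or MIP-1 alpha, is a ligand of CCR1. Its log2 signal of 4.39, 4.27 and 4.62 in DMSO and 4.70, 4.90 and 4.51 with ruxolitinib was dim on every array. Here too the groups overlapped, and the change of 0.28 ± 0.19 (SE) did not pass (adjusted p = 0.754, limma; interval -0.13 to 0.69). The gene has near-identical copies, CCL3L1 and CCL3L3, whose transcripts may add to its signal.

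Of the CXC ligands, CXCL10, or IP-10, is induced by interferon and attracts activated T cells through CXCR3. It gave 5.31, 5.64 and 5.57 in DMSO and 5.53, 5.57 and 5.19 with ruxolitinib, with overlapping groups. Its log2 change was -0.08 ± 0.19 (SE, adjusted p = 0.967, limma), and the interval of -0.49 to 0.33 runs from a 1.41-fold lower to a 1.26-fold higher level. CXCL9 and CXCL11, the other ligands of CXCR3, had changes of -0.23 ± 0.18 and -0.44 ± 0.20 and did not pass (adjusted p = 0.812 and 0.523, limma).

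CXCL8, or interleukin 8, attracts neutrophils through CXCR1 and CXCR2. Its log2 signal was 5.04, 5.41 and 5.36 in DMSO and 5.03, 5.34 and 5.57 with ruxolitinib. The lowest and the highest of the 6 values were both from ruxolitinib arrays, so the groups overlapped, and the change was 0.04 ± 0.20 (SE, adjusted p = 0.986, limma; interval -0.40 to 0.48). CXCL16 is made as a membrane protein that binds CXCR6 and can be shed as a soluble ligand. It had 5.10, 5.51 and 5.51 in DMSO and 5.76, 5.17 and 4.72 with ruxolitinib. The ruxolitinib arrays spread further (SD 0.52) than the DMSO arrays (SD 0.24) and covered them. The change was -0.16 ± 0.26 (SE, adjusted p = 0.941, limma), with an interval of -0.72 to 0.40.

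Upstream sequence in the RefSeq table (GRCh38.p14) matched 4 of the 8 members, CCL3, CCL22, CXCL8 and CXCL10. The 250 bases before the start of CXCL10 and CXCL8 are shown because both promoters are well known for interferon, NF-kB or AP-1 input, and the level of both genes did not pass the test. CXCL10 is on the minus strand at chr4:76023498-76023747 and CXCL8 on the plus strand at chr4:73740319-73740568. Capitals mark every match, on either strand, to one of 5 short patterns.
CXCL10: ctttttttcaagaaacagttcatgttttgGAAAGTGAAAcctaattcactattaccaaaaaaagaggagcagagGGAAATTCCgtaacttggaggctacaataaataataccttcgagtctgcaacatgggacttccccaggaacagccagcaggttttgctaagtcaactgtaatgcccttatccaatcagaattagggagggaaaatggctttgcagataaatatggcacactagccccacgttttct
CXCL8: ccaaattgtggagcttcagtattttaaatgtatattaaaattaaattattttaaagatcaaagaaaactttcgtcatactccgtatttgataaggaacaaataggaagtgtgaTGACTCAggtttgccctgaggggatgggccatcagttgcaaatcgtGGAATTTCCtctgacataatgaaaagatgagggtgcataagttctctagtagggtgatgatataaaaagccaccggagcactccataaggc
The patterns were TTCNNNGAA and TTCNNNNGAA for STAT proteins, GGNNTTTCC for NF-kB, TTTCNNTTTC for the interferon response element and TGANTCA for AP-1. In CXCL10 the interferon pattern lay 221 to 212 bases before the start and the NF-kB pattern 176 to 168 bases before it, both on the opposite strand. In CXCL8 the AP-1 pattern lay at 137 to 131 and the NF-kB pattern at 91 to 83 bases before the start. Of 27305 upstream windows of this length, 3.07% held the interferon pattern, 5.48% the NF-kB pattern, 6.60% the AP-1 pattern, and 6.78% and 5.35% the STAT patterns with 3 and 4 spacer bases. The windows of CCL3 and CCL22 held no match to these 5 patterns, which does not show that they lack other forms of such sites. A match describes the letters only. The NF-kB pattern was set after a first search, so its matches carry no weight against its share of all windows. Only this form of the NF-kB site is marked, so unmarked stretches may hold others.

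The family beyond the members was taken whole. Of 48 listed chemokine ligands 40 were measured, and 2 of the 40, CCL2 and CCL17, were lower. That is 5.0% called, against 1.14% of all genes, and both are members named with earlier results known. Among the 32 that are not members, 0 passed in either direction (limma). Before adjustment CXCL11 alone of these was under 0.05, as lower, beside 2304 lower and 901 higher of all 33616 genes. The log2 changes of the 32 had a median of -0.01. Only 13 of the 40 stood above the median level of all genes, and the brightest non-member, CCL25, had a mean of 6.75. CXCL12, the stromal ligand of CXCR4 that holds B-cell precursors in the marrow, had 6.22 ± 0.35 in DMSO and 6.04 ± 0.18 with ruxolitinib (SD, n = 3 per group). Groups without overlap were found for 3 of the 40, against 14.2% of all genes. The third of these, CCL21, had 3.93 ± 0.15 in DMSO and 4.26 ± 0.20 with ruxolitinib (SD) and did not pass.

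**Figure D3:**
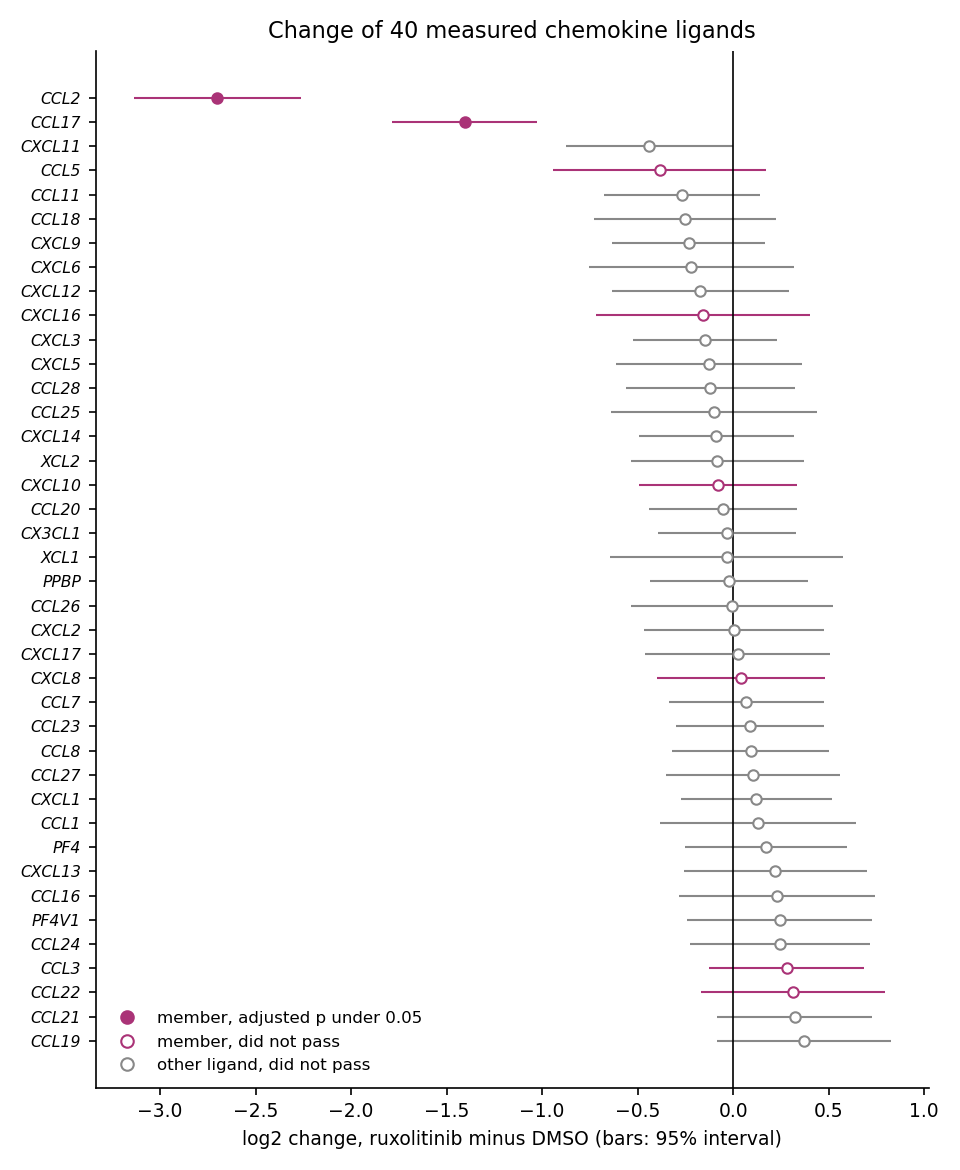
Log2 change (horizontal axis, ruxolitinib minus DMSO) of the 40 measured chemokine ligands (vertical axis, in order of change), with 95% intervals as bars, members in purple, other ligands in grey and filled points for those at an adjusted p under 0.05. CCL2 (-2.70) and CCL17 (-1.41) lie apart from the other 38, whose changes run from -0.44 to 0.37.

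Genes next to CCL2 and CCL17 were read because both lie in chemokine clusters. This step was chosen after the values of these 2 genes were seen. Of the 5 nearest protein-coding genes on each side of CCL2 in the RefSeq order, 8 were measured and 0 passed (limma; 0 at an unadjusted p under 0.05), with changes from -0.27 to 0.26. They included the chemokines CCL7 (0.07 ± 0.18, SE), CCL11 (-0.27 ± 0.19), CCL8 (0.09 ± 0.19) and CCL1 (0.13 ± 0.23). Around CCL17 all 10 were measured and 0 passed (limma; CIAPIN1 and CCDC102A were lower at an unadjusted p under 0.05), with changes from -0.62 to 0.31. CX3CL1, between CCL22 and CCL17, had 3.99 ± 0.04 in DMSO and 3.95 ± 0.06 with ruxolitinib (SD). CCL7, CCL11, CCL1 and CX3CL1 were below the median level of all genes in DMSO already, and CCL8 was above it.

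**Figure D4:**
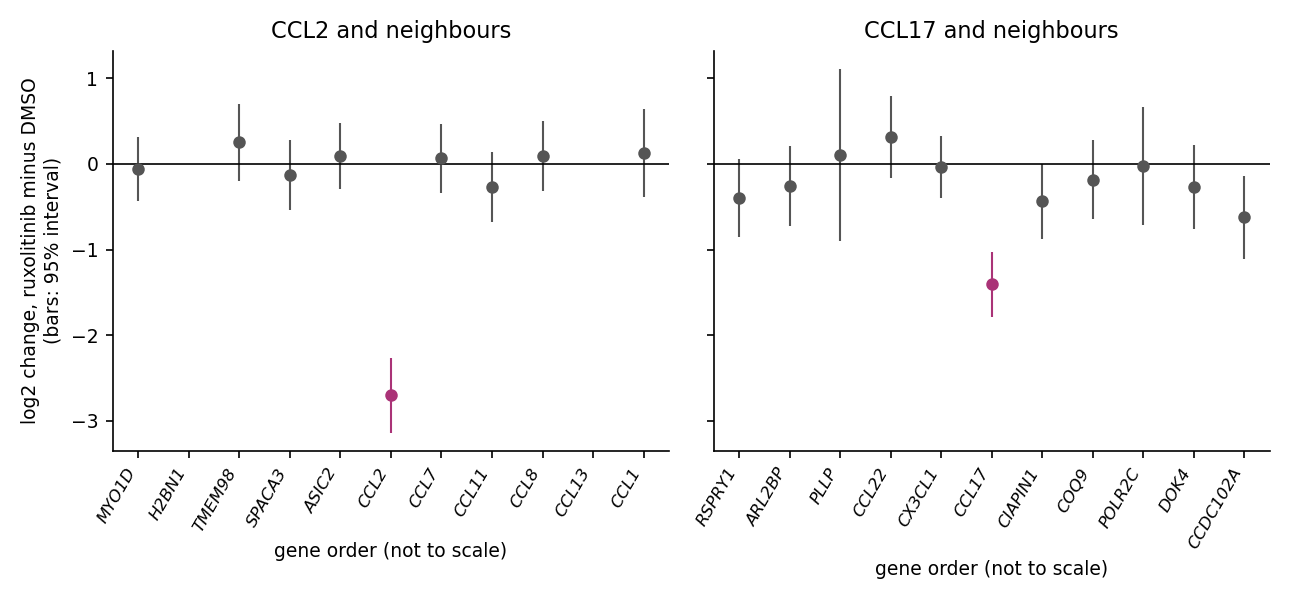
Log2 change (vertical axis, ruxolitinib minus DMSO, bars 95% intervals) of CCL2 (left) and CCL17 (right), in purple, and of the 5 nearest protein-coding genes on each side, in grey, in gene order and not to scale. The 8 measured neighbours of CCL2 lie between -0.27 and 0.26, and the 10 of CCL17 between -0.62 and 0.31; H2BN1 and CCL13 have no point.

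The genes whose array-by-array pattern was closest to CCL2 were TMEM273, LDB3 and BHLHE40. Likeness was the root mean square difference over the 6 arrays after each gene's DMSO mean was subtracted, among genes above the median level. It was 0.26 for TMEM273, 0.28 for LDB3 and 0.30 for BHLHE40, a transcriptional repressor. Their log2 changes were -2.54 ± 0.18, -2.46 ± 0.22 and -2.78 ± 0.22 (SE). Closest to CCL17 were PIM1, a kinase gene induced by STAT5, at 0.10, and CALR, an endoplasmic reticulum chaperone, and CASP1, the inflammasome caspase, both at 0.12. These 3 changed by -1.37 ± 0.17, -1.35 ± 0.18 and -1.42 ± 0.17. Since the search looks for genes with the same difference between groups, their calls follow from it.

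**Figure D5:**
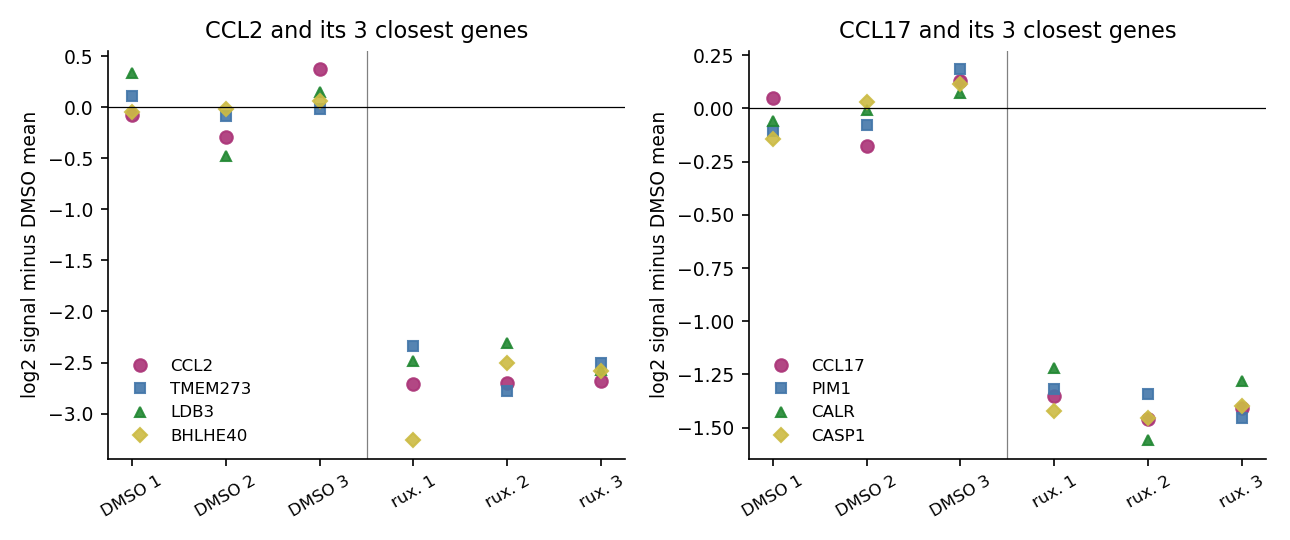
Log2 signal minus the gene's own DMSO mean (vertical axis) on each of the 6 arrays (horizontal axis) for CCL2 with TMEM273, LDB3 and BHLHE40 (left) and for CCL17 with PIM1, CALR and CASP1 (right). Each gene is near 0 on the DMSO arrays, and on the ruxolitinib arrays the left panel's genes lie near the CCL2 change of -2.70 and the right panel's near the CCL17 change of -1.41.

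Receptors for the members were mostly dim. Of 21 measured chemokine receptors 2, CCR1 and CCR6, were lower and 0 higher, with a median log2 change of -0.15. That is 9.52% called, against 1.14% of all genes. The list was chosen with earlier results known, so this share carries no weight of its own. Before adjustment 5 were under 0.05, all lower, beside 2304 lower and 901 higher of all 33616 genes. CCR1, which binds CCL3 and CCL5, had 5.08, 4.91 and 5.25 in DMSO and 4.04, 4.13 and 3.51 with ruxolitinib, a change of -1.19 ± 0.21 (SE, adjusted p = 0.0198, limma). CCR6, the receptor of CCL20, changed by -1.24 ± 0.26 (adjusted p = 0.0474, limma). Each of these 2 calls held in only 1 of the 6 fits that leave out 1 array, for CCR1 without ruxolitinib replicate 1 and for CCR6 without DMSO replicate 1. Leaving out ruxolitinib replicate 2 or one of the DMSO replicates 2 and 3 left 0 receptors past the threshold, and without ruxolitinib replicate 3 the only one past it was CCR7, which did not pass on all 6 arrays. CCR2, the receptor of CCL2, had 5.47 ± 0.17 in DMSO and 5.30 ± 0.55 with ruxolitinib (SD, n = 3 per group), and CCR4, the receptor of CCL17 and CCL22, had 4.79 ± 0.33 and 4.39 ± 0.25. The changes of CXCR1 (0.32 ± 0.26), CXCR2 (-0.14 ± 0.19), CXCR3 (-0.15 ± 0.29) and CXCR6 (-0.14 ± 0.17) did not pass either. CCR3 was not analysed here.

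Among 24 measured cytokines and receptors that can induce chemokine genes, 4 were lower and 0 higher, with a median log2 change of -0.05. That is 16.7% called, against 1.14% of all genes. The list was chosen with earlier results known, so this share carries no weight of its own. Before adjustment 7 were under 0.05 as lower and 1, IL1B, as higher, beside 2304 lower and 901 higher of all 33616 genes. TNF, a strong inducer of CCL2 through NF-kB in many cell types, was 9.88, 9.79 and 10.5 in DMSO and 7.18, 6.93 and 6.64 with ruxolitinib, an 8.76-fold difference. LTB, a membrane-bound lymphotoxin, changed by -1.32 ± 0.19, LTA by -1.02 ± 0.18 and IL4R, the receptor chain for IL-4 and IL-13 that acts on CCL17 through STAT6, by -1.02 ± 0.21 (SE). TNF kept its call whichever array was left out, LTB lost it without either replicate 2, and LTA and IL4R lost it in each of these 6 fits. The count of lower genes in this list was therefore 1 without either replicate 2 and 2 without any other array. IL1B, a strong inducer of CXCL8 and CCL2 in many cell types, was bright, at 13.3 ± 0.28 in DMSO and 13.9 ± 0.35 with ruxolitinib (SD, n = 3 per group), and its log2 change of 0.63 ± 0.22 (SE) did not pass (adjusted p = 0.331, limma). IL4 (3.36 in DMSO), IL13 (4.07), IFNG (3.92) and TSLP (4.35) were dim, and the receptor chain CRLF2 was bright, at 17.5 in DMSO and 17.6 with ruxolitinib.

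Of 29 measured regulators of chemokine genes 2 were lower and 1 was higher, with a median log2 change of -0.05. That is 10.3% called, against 1.14% of all genes. The list was chosen with earlier results known, so this share carries no weight of its own. Before adjustment 7 were under 0.05 as lower and 2 as higher, beside 2304 lower and 901 higher of all 33616 genes. EGR1, an immediate early transcription factor, changed by -2.01 ± 0.21 and IRF8, an interferon regulatory factor of B and myeloid cells, by -1.29 ± 0.20, and the repressor BCL6 by 2.78 ± 0.26 (SE; adjusted p = 0.000762, 0.00909 and 0.000359, limma). BCL6 and EGR1 passed whichever array was left out, and IRF8 lost its call without either replicate 2. The NF-kB subunits RELA (-0.27 ± 0.21), NFKB1 (0.15 ± 0.20) and REL (0.18 ± 0.18) and the IL-4 signal transducer STAT6 (-0.06 ± 0.30) did not pass. Regulators that did not pass but were under 0.05 before adjustment included JUN (-0.70 ± 0.19), STAT3 (-0.62 ± 0.20) and ZFP36L1 (-0.83 ± 0.26) as lower. IRF4 (0.52 ± 0.22) was under 0.05 as higher and did not pass either. These genes changed in the same 6 arrays as the ligands, and their part in the changes of CCL2 and CCL17 was not tested.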

How the data were processed

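The authors deposited 1 table with a log2 signal for each transcript cluster and array. That the scale is log2 was judged from the values, which run from 1.99 to 19.9. The submitters' processing notes name RMA (background correction, normalization and probe summary), Transcriptome Analysis Console and Affymetrix Expression Console. Software versions, filters and the build used to define the clusters: not given in the sources used here. The number of arrays limits the precision.

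Of 135750 rows, 36176 were annotated to exactly 1 gene symbol, 1119 to several and 98455 to none. Symbols were updated through Entrez identifiers with RefSeq (GRCh38.p14), which matched 25516 rows, and each of 33616 genes was read from its row with the highest mean. The groups were compared across all genes in R 4.3.3 with limma 3.58.1, using moderated two-sided tests without covariates and an adjusted p threshold of 0.05 (Benjamini-Hochberg). The fit was tested on simulated data. The median 95% interval reached 0.44 either side of a log2 change.

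The members and lists were chosen with earlier results of these data known. The lists were chemokine ligands, receptors, inducing cytokines, regulators, cleavage and storage, and cell type markers. Named were all members, the members' receptors, up to 4 genes past the threshold in each list, and the 3 genes closest in pattern to each member past it. Other genes, among them CCR7, CXCL9, CXCL11, CXCL12, CCL21, CCL25 and the neighbouring genes, were named after their values were seen. So were the cytokines and the regulators given as not passing. The NF-kB pattern was set after a first search. Replicate numbers were not treated as pairs: deviations of same-numbered arrays correlated at -0.21, -0.08 and -0.40. Those of differently numbered DMSO and ruxolitinib arrays correlated at -0.11 to 0.28, highest for DMSO replicate 3 with ruxolitinib replicate 1. Alternatives covered the spread model, dim genes, rows, scaling, weights, the replicate number and arrays left out.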

Additional observations from a re-analysis of the deposited data

How the results depend on the processing

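CCL2 and CCL17 kept their direction and their call in all moderated fits in which they were tested, 15 for CCL2 (highest adjusted p 0.00172, limma) and 16 for CCL17 (highest 0.0261), those that leave out 1 array included. With no moderation of the spread 0 of the 8 members, 0 of 40 ligands, 0 of 21 receptors, 0 of 24 inducing cytokines and receptors and 0 of 29 regulators passed, with 2 genes in all. With only genes above the median level 1 member, and 1 ligand in all, passed, CCL17, because CCL2 was not tested. Over all genes the 384 calls became 187 after quantile normalization, 101 to 291 with 1 array left out, 319 without both DMSO replicate 1 and ruxolitinib replicate 3, and 122 with the replicate number as a block. With that block 2 members and 2 ligands passed, 0 receptors, 2 inducing cytokines and receptors, and 2 regulators. Of the receptors, 1 passed when every row was tested, after quantile normalization, after cyclic loess and without both those arrays, and 0 to 1 with 1 array left out. The 4 inducing cytokines and receptors became 2 after quantile normalization, 2 without both those arrays and 1 to 2 with 1 array left out. The sign of 3 members that did not pass turned: CXCL8 had -0.029 with array weights, -0.20 without both those arrays and -0.09 to 0.18 with 1 array left out, CXCL10 had -0.18 to 0.040 and CXCL16 -0.43 to 0.090 with 1 array left out. The cause of these shifts was not tested. Low signal, which cannot be told from background here, limits CCL3, CCL22 and CCL2 with ruxolitinib most. The other members are limited too, among them CCL17 with ruxolitinib at 5.08. The brightest member, CCL5, had a mean of 6.88, below the 7.60 of NKG7, a marker of T and NK cells.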

Other observations

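Proteins that cut, shed or hold chemokines were measured on the same arrays. Of 12 such genes 0 passed in either direction (limma), with a median log2 change of -0.08. Before adjustment 2 were under 0.05, both lower, beside 2304 lower and 901 higher of all 33616 genes. ADAM10, the protease known for shedding CXCL16, was bright at 14.7 ± 0.18 in DMSO and 14.7 ± 0.04 with ruxolitinib (SD, n = 3 per group). ADAM17, a related sheddase, had 10.9 ± 0.37 and 11.2 ± 0.24. SRGN, the granule proteoglycan that binds chemokines in blood cells, had 10.9 ± 0.46 and 10.6 ± 0.28 in its brightest of 3 clusters. DPP4, a protease that trims chemokines at their first residues, had 6.68 ± 0.40 and 6.16 ± 0.27.

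CXCR4, the marrow homing receptor, was the brightest of the 21 receptors, at 16.9 ± 0.18 in DMSO and 17.3 ± 0.37 with ruxolitinib (SD). CCR7, which guides lymphocytes to lymph nodes, had 7.43, 6.93 and 6.77 in DMSO and 5.73, 5.92 and 6.35 with ruxolitinib. Its groups did not overlap, and its log2 change of -1.04 ± 0.23 (SE) fell just outside the threshold (adjusted p = 0.0594, limma). CCRL2, a receptor that presents chemerin, had a log2 change of -0.89 ± 0.28 (SE, adjusted p = 0.239, limma).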
